A study of Mus musculus with 6 samples.

Results

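The antioxidant and glutathione enzymes of megakaryocyte progenitors (MkP), marrow or liver precursors committed to making megakaryocytes and hence platelets, were compared between MkP of fetal liver (3 arrays, embryos at E13.5) and MkP of bone marrow (3 arrays, adult mice of 12 to 18 weeks). All mice were wild-type C57BL/6, and cells of both tissues had been flow sorted as positive for c-kit, CD150 and CD41 and negative for lineage markers and Sca-1. The labels call the samples biological replicates without giving the number of animals or embryos behind each, so p-values measure the spread between these samples, and organ and age cannot be told apart. The enzymes were a list of 40 genes taken by name, chosen with earlier results of these data known. The probe set annotated with a gene's symbol alone that had the highest mean log2 signal over the 6 Affymetrix arrays stood for the gene. Of the 40 genes, 37 were measured, out of 11625 genes in all. Values are array signals on a linear scale, and a change is the difference of log2 means, fetal liver minus bone marrow. Prdx1, whose 5 probe sets also name another gene, Prdx5 and Prdx6 were not analysed here.

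These enzymes form a chain. Superoxide dismutases turn superoxide, a by-product of respiration, into hydrogen peroxide, which catalase, the peroxiredoxins and the glutathione peroxidases then reduce. Peroxiredoxins draw their electrons from thioredoxin and glutathione peroxidases from glutathione, and reductases restore both carriers with NADPH. Many of these genes are targets of NRF2 (encoded by Nfe2l2), which the adaptor KEAP1 marks for degradation until oxidants or electrophiles modify it.

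Of the 37 measured genes, 6 rose in fetal liver MkP relative to bone marrow MkP and 2 fell (limma adjusted p under 0.05, adjusted over all genes). Prdx3, Prdx4, Sod2, Glrx5, Gsta4 and Mgst3 rose, and Glrx and Gstm1 fell. These are 21.6% of the measured members, where the same rule called 7.77% of all genes, 3.01% as higher and 4.76% as lower in fetal liver. At an unadjusted p under 0.05 in limma there were 14 of the 37 members, and 2643 of all 11625 genes. The median log2 change of the 37 members, fetal liver minus bone marrow, was 0.15, with the quartiles at -0.19 and 0.79, and the median of all genes was 0.01. In 12 members all 3 fetal liver signals lay above all 3 marrow signals, and in 2 they lay below, so that 14 of 37 did not overlap; of all genes 13.8% lay above, 14.2% below and 28.0% either way. The 12 were the 6 risen genes with Prdx2, Gpx3, Txnrd1, Srxn1, Gstm5 and Gstp1.

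**Figure D1:**
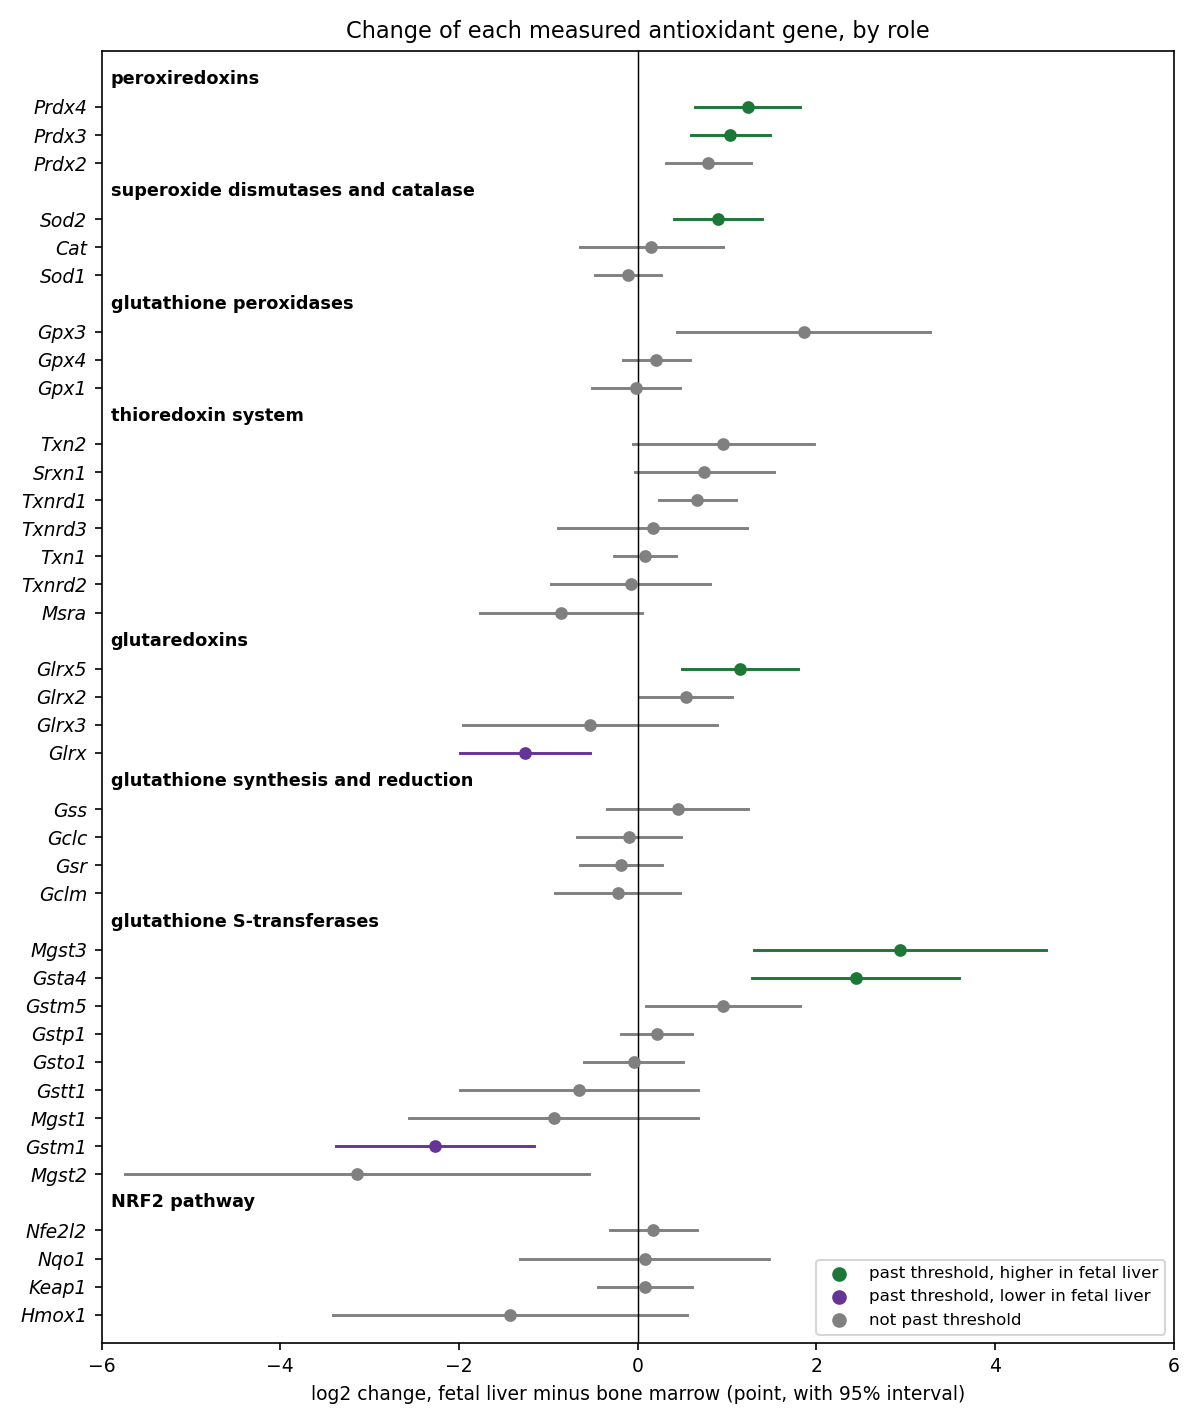
Log2 change of each of the 37 measured genes, fetal liver minus bone marrow, grouped by role; points are limma estimates from 3 arrays per tissue and bars their 95% intervals. The risen genes (green) stand among the peroxiredoxins, the dismutases, the glutaredoxins and the transferases, and the changes of the transferases run from -3.14 (Mgst2, above background on 1 fetal liver array) to 2.93 (Mgst3).

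Many of the calls were lost when 1 array was left out, a setting that also has fewer arrays. Over all genes, those higher in fetal liver numbered 350 with all arrays. They numbered 177, 106 and 102 without fetal liver replicates 1, 2 and 3. Without fetal liver replicate 2 none of the members was past the threshold as higher in limma, nor without fetal liver replicate 3 (9 members at an unadjusted p under 0.05 each time), and without marrow replicate 2 the count was 3. The fallen genes numbered 0 without fetal liver replicates 1 and 3 (6 and 2 members at an unadjusted p under 0.05), 1 without fetal liver replicate 2 and 1 without marrow replicate 3. Without the intensity trend in the variance model the counts were 1 higher, Gsta4, and 0 lower (3 at an unadjusted p under 0.05). In 135 fits of the 8 called genes under 17 alternatives no change had another sign, and 91 of the 135 were past the threshold.

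The arrays differed in ways that can touch these values. The median signal was 62.8 to 65.5 on the fetal liver arrays and 74.1 to 80.2 on the marrow arrays, although all had been scaled to the same trimmed mean. Centring the arrays on their medians moved the median change of all genes to 0.26 and that of the members to 0.41, and gave 9 members higher and 1 lower, within 897 genes higher and 438 lower in fetal liver, against 350 and 553 genes without centring. It added 0.25 to the change of every member, so the small negative changes (7 members) became positive by construction. Under quantile normalization Gpx1, Sod1 and Txnrd2 changed sign. The ratio of 5' to 3' signal, a measure of RNA integrity, was 0.892 to 1.02 in fetal liver and 1.06 to 1.13 in marrow for Actb, and for Gapdh it was 0.109 to 0.449 in fetal liver and 0.0990 to 0.303 in marrow. Its part in the results was not tested.

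Markers of other blood cells moved with the tissue. All 12 measured granulocyte and monocyte markers fell in fetal liver (among the brightest Mpo at -2.23, S100a9 at -7.23 and Lyz2 at -2.42), and their summed signal was 4797 to 6919 in fetal liver against 46015 to 71743 in marrow. Of these, Ltf, Chil3 and Fcnb were not above background on any fetal liver array. Of 9 erythroid markers 5 rose, and the sum was 15516 to 30607 in fetal liver against 6414 to 11262 in marrow, where the embryonic globins Hbb-y and Hbb-bh1 were not above background on any array. Among the brightest of this list, Ermap changed by 1.92 ± 0.66 (SE, adjusted p = 0.108), Tfrc by 1.01 ± 0.21 (adjusted p = 0.0165) and Slc4a1 by 1.30 ± 0.75 (adjusted p = 0.349). Hepatocyte markers summed to 641 to 3678 in fetal liver and 234 to 699 in marrow, with Apoa1 alone of 6 past the threshold (adjusted p = 0.0480). Afp changed by 1.81 ± 1.09 (adjusted p = 0.365). Its signals overlapped, at 362, 2793 and 265 in fetal liver and 457, 27.9 and 444 in marrow. Apoa2 and Alb changed by 1.69 and 2.05, and Hnf4a and Ttr by 0.16 and -0.21.

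Macrophage markers (3 of 5 fell, among the brightest Csf1r at -3.08 and Vcam1 at -3.31, with C1qb at -1.63 not past the threshold) summed to 216 to 559 in fetal liver and 1808 to 3335 in marrow. Those of mast cells, basophils and eosinophils (3 of 4 fell, Ms4a2 at -2.87, with Prg2 and Mcpt8) summed to 108 to 309 in fetal liver and 1332 to 2810 in marrow. Prg2, Mcpt8 and the macrophage marker Cd163 were not above background on any fetal liver array, so no size is given for their fall. Of 3 lymphoid markers Nkg7 fell (-3.28), and Cd79b and Ighm had changes of 0.42 and -0.34. The lymphoid sum was 389 to 525 in fetal liver and 1092 to 2111 in marrow. Within it only Nkg7 was apart (105 to 137 in fetal liver and 939 to 1626 in marrow), while the signals of Cd79b and Ighm overlapped. Markers of the sort itself were above background on every array, and Kit, Slamf1 and Itga2b had changes of -0.55, 0.29 and -0.64, none past the threshold (adjusted p = 0.384, 0.671 and 0.109). The signals of Itga2b, which encodes CD41, were nevertheless all lower in fetal liver than in marrow. Of 9 megakaryocyte and platelet markers 2 rose, and the 3 brightest, Pf4, Itgb3 and Rab27b, changed by -0.32, 0.34 and 0.47 without passing it. In such bulk samples fewer cells of a type and less RNA per cell cannot be told apart, and the part of other cells in the antioxidant results was not tested.

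**Figure D2:**
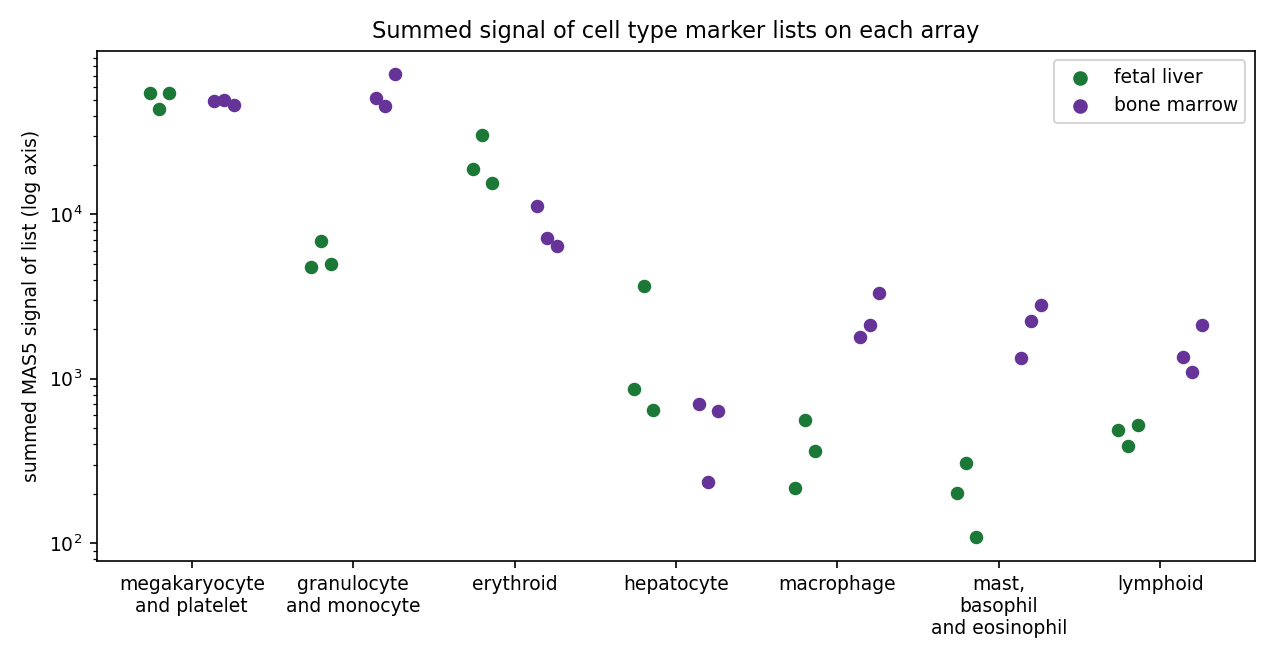
Summed MAS5 signal of each list of cell type markers (log axis), a point for each array, with the 3 fetal liver arrays (green) left of the 3 bone marrow arrays (purple). Granulocyte and monocyte markers lie at 4797 to 6919 in fetal liver and 46015 to 71743 in marrow, and erythroid markers are higher in fetal liver.

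The regulators at the head of the pathway were not past the threshold. Nfe2l2 had signals of 1868, 2408 and 2106 in fetal liver and 2270.3, 1625 and 1785 in marrow, which overlap, with a log2 change of 0.17 ± 0.22 (SE, limma adjusted p = 0.703) and a 95% interval of -0.31 to 0.66. Keap1 had signals of 1368, 1501 and 1216 in fetal liver and 1578, 1173 and 1146 in marrow, a change of 0.08 with an interval of -0.45 to 0.61. The inducible targets varied between arrays of 1 tissue. Hmox1, which encodes haem oxygenase, had signals of 101, 13.2 and 28.2 in fetal liver and 197, 25.8 and 174 in marrow, and was above background on 1 fetal liver array and 2 marrow arrays (change -1.43 ± 0.89, adjusted p = 0.390). Nqo1, a quinone reductase used as an indicator of NRF2 activity, had a change of 0.08 with an interval of -1.31 to 1.47. At an unadjusted p under 0.05 this group had 0 of 4 genes in limma.

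NRF2 acts through the antioxidant response element, whose core TGACNNNGC was searched on both strands in the 250 bases before each start site of the members (RefSeq, GRCm38.p6; 34 of the 40 genes had a window). It was present in 15.6% of the 45 member windows and in 10.2% of all 32851 windows of this length. The matches are shown since they stand in 7 genes, of which 6 were measured and 0 were past the threshold. They are printed 5′ to 3′ on the strand that reads TGAC, with the core in capitals and with 10 bases on either side.
Gclm: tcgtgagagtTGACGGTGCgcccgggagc
Gstm5: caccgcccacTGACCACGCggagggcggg
Mgst1: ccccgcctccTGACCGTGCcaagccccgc
Nfe2l2: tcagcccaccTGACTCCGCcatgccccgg
Prdx1: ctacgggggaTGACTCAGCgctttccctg
Sod1: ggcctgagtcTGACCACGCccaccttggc
Txnrd1: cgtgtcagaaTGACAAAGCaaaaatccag
The printed stretches lie at chr3:122245413-122245441 (minus strand) for Gclm, chr3:107895802-107895830 (plus) for Gstm5, chr6:138140461-138140489 (minus) for Mgst1, chr2:75704885-75704913 (minus) for Nfe2l2, chr4:116685456-116685484 (minus) for Prdx1, chr16:90220696-90220724 (minus) for Sod1 and chr10:82859104-82859132 (minus) for Txnrd1. Of the 8 genes past the threshold, 7 had a window, and the core was in 0 of them. Bases farther upstream were not searched, so a gene without a match here may still hold the core elsewhere. A match describes these letters only and is no evidence of binding. The same 34 genes held the GATA motif AGATAA in 1 gene (2.22% of their windows, 9.99% of all) and the E-box CACGTG in 2 genes (4.44%, against 6.02% of all).

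Peroxiredoxins, the peroxidases that thioredoxin recharges, rose in 2 of 3 measured cases. Prdx3, the mitochondrial peroxiredoxin, had signals of 3547, 3675 and 3634 in fetal liver and 1481, 1787 and 2069 in marrow. The fetal liver arrays lay close together and all above the marrow arrays, and the log2 change was 1.04 ± 0.20 (SE, limma adjusted p = 0.0113). Its call was lost without fetal liver replicate 2 or 3 (adjusted p = 0.0622 and 0.0626) and without the variance trend (0.0604), with changes of 0.91 to 1.29 over all alternatives.

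Prdx4, the peroxiredoxin of the endoplasmic reticulum, had signals of 1939, 1676 and 1851 in fetal liver and 990.0, 571 and 814 in marrow, without overlap. Its change was 1.23 ± 0.27 (adjusted p = 0.0191). Of its 3 further probe sets past the filter, 2 were also higher in fetal liver (0.98 ± 0.29 and 1.33 ± 0.44), and a dim one was not (-0.21 ± 0.47). Leaving out fetal liver replicate 1, 2 or 3 ended the call (adjusted p = 0.0666, 0.0690 and 0.0902), as did averaging its probe sets (0.0607) or dropping the variance trend (0.0602). Its promoter is shown because, among the 5 risen genes with a window, it alone held an E-box, the motif that MYC and other helix-loop-helix factors read (chrX:155338461-155338710, minus strand, 250 bases before the start site, the E-box CACGTG in capitals).
Prdx4: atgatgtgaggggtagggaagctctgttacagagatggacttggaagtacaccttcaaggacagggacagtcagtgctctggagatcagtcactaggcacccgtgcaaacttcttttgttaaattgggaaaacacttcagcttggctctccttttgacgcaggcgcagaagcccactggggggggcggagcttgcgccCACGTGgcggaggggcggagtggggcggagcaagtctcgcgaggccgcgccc

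Prdx2, the cytosolic peroxiredoxin abundant in red cells, stood at the threshold. Its signals were 11989.5, 10504 and 9834 in fetal liver and 8646, 4929 and 5596 in marrow, again without overlap (change 0.79 ± 0.22, adjusted p = 0.0505). It was past the threshold in 9 of 17 alternatives (adjusted p of 0.0108 to 0.183 over the 17), among them median centring (0.0130) and quantile normalization (0.0274). Of the 6 fits that left out an array, it was past the threshold only in that without marrow replicate 1 (0.0127), and the other 5 had an adjusted p of 0.116 to 0.145. Its other probe set, with signals of 9473, 8132 and 9046 in fetal liver and 5009.9, 6277 and 4862 in marrow, was past the threshold when probe sets were tested singly (0.73 ± 0.17, adjusted p over probe sets = 0.0330).

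The superoxide dismutases differed from each other. Sod2, the manganese enzyme of mitochondria, had signals of 7496, 5776 and 5879 in fetal liver and 4542, 2706 and 3169 in marrow, all higher in fetal liver (change 0.90 ± 0.22, SE, adjusted p = 0.0355). This call depended on the probe set: the next brightest gave 0.46 ± 0.21 with signals of 3181, 2582 and 2821 in fetal liver and 1805, 2447 and 2009 in marrow, and the remaining 2 gave -0.16 ± 0.37 and -0.18 ± 0.26. With the mean of all 4 probe sets the change was 0.26 (adjusted p = 0.416), and with the brightest whose name marks no likely cross-hybridisation it was 0.46 (0.211). Leaving out fetal liver replicate 1, 2 or 3 also ended it (adjusted p = 0.0959, 0.0920 and 0.0988), as did leaving out marrow replicate 2 or 3 (0.0912 and 0.0873) or the variance trend (0.137). Sod1, the copper and zinc enzyme of the cytosol, had signals of 25034, 18146 and 17581 in fetal liver and 23792, 20520.3 and 20465 in marrow, with a change of -0.11 and an interval of -0.47 to 0.26. Cat, the peroxisomal catalase, had 2869.6, 1700.0 and 1463 in fetal liver and 2953, 1404 and 1248 in marrow, with the highest signal of each tissue on replicate 1 (change 0.15 ± 0.36, adjusted p = 0.852).

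None of the 3 glutathione peroxidases, selenoproteins that reduce peroxides with glutathione, was past the threshold in limma (1 at an unadjusted p under 0.05). Gpx1, the main cytosolic form, had signals of 9854, 13906 and 12745 in fetal liver and 9527, 11273 and 16808 in marrow, with a change of -0.02 and an interval of -0.51 to 0.47. Gpx4, which protects membrane lipids from peroxidation, changed by 0.21 (interval -0.17 to 0.58). Gpx3, known as the secreted plasma form, had near equal signals of 359, 364 and 384 on the fetal liver arrays and scattered ones of 111, 33.4 and 258 on the marrow arrays, all lower. Its change of 1.86 ± 0.64 had an adjusted p of 0.110, and without marrow replicate 3 it was past the threshold (2.53, adjusted p = 0.0339).

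In the thioredoxin system none of 7 genes was past the threshold in limma, with 1 at an unadjusted p under 0.05. Txnrd1, the cytosolic thioredoxin reductase, had signals of 3101, 2911 and 3095 in fetal liver and 2079, 1654 and 2025 in marrow, which do not overlap (change 0.67 ± 0.19, adjusted p = 0.0644). It was past the threshold under median centring (adjusted p = 0.0150), while its 2 dimmer probe sets gave 0.01 ± 0.34 and 0.11 ± 0.37. Txn1, the cytosolic thioredoxin, had 12818, 10448 and 10425 in fetal liver and 11676, 9795 and 10394 in marrow, with an interval of -0.27 to 0.42 around a change of 0.08. Txn2, its mitochondrial counterpart, had 549.9, 1369.6 and 1721 in fetal liver and 382, 509 and 905 in marrow (change 0.96 ± 0.46, adjusted p = 0.248). Its lowest signal in each tissue was on replicate 1, the arrays with the lowest Gapdh 5' to 3' ratios (0.109 in fetal liver and 0.0990 in marrow). Srxn1, sulfiredoxin, which repairs overoxidised peroxiredoxins, did not overlap between the tissues and changed by 0.75 ± 0.35 (adjusted p = 0.241). Txnrd2, Txnrd3 and the methionine sulfoxide reductase Msra changed by -0.08, 0.17 and -0.86. The probe sets of Txnrd2 disagree: the 3 further ones gave 1.54 ± 0.50, 1.57 ± 0.82 and -0.62 ± 0.51. The first of these had signals of 305, 324 and 558 in fetal liver and 69.7, 217 and 140.0 in marrow, against 163, 279 and 277 in fetal liver and 262, 216 and 263 in marrow for the one used. It became the brightest without marrow replicate 1 or 3, where the change of the gene was 1.12 and 1.603 (adjusted p = 0.189 and 0.130).

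The glutaredoxins moved both ways. Glrx5, a mitochondrial glutaredoxin known to be needed for iron-sulfur clusters and for haem synthesis, had signals of 3503, 7213 and 5676 in fetal liver and 2000.1, 1999.6 and 3315 in marrow. The lowest fetal liver signal lay just above the highest marrow signal, and the change was 1.14 ± 0.29 (SE, limma adjusted p = 0.0408). The call was lost without fetal liver replicates 2 and 3 (adjusted p = 0.167 and 0.146), without marrow replicates 1 and 2 (0.103 and 0.107), under quantile normalization (0.0587), with no filter (0.0525) and without the variance trend (0.142). The erythroid sum was also higher in fetal liver, at 15516 to 30607 against 6414 to 11262 in marrow, and its part in these values was not tested.

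Glrx, the cytosolic glutaredoxin that removes glutathione from protein thiols, moved the other way, with signals of 317, 351 and 428 in fetal liver and 701, 1227 and 775 in marrow. All fetal liver signals were lower, and the change was -1.26 ± 0.33 (adjusted p = 0.0421). Its other probe set overlapped between the tissues (-0.58 ± 0.47). Leaving out fetal liver replicate 1, 2 or 3 ended the call (adjusted p = 0.106, 0.143 and 0.0999), as did leaving out marrow replicate 2 or 3 (0.105 and 0.0661). It was also lost under median centring (0.0795) and quantile normalization (0.0607), with no filter (0.0526), the mean of probe sets (0.0700) and without the variance trend (0.0684). Glrx2, which is mainly mitochondrial, had 2731, 2588 and 2247 in fetal liver and 1548, 1454 and 2299.9 in marrow (change 0.54 ± 0.23, adjusted p = 0.201), and was past the threshold under median centring (0.0476). Glrx3, of the cytosol and nucleus, had a change of -0.53 and was above background on 2 fetal liver arrays and 3 marrow arrays.

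**Figure D3:**
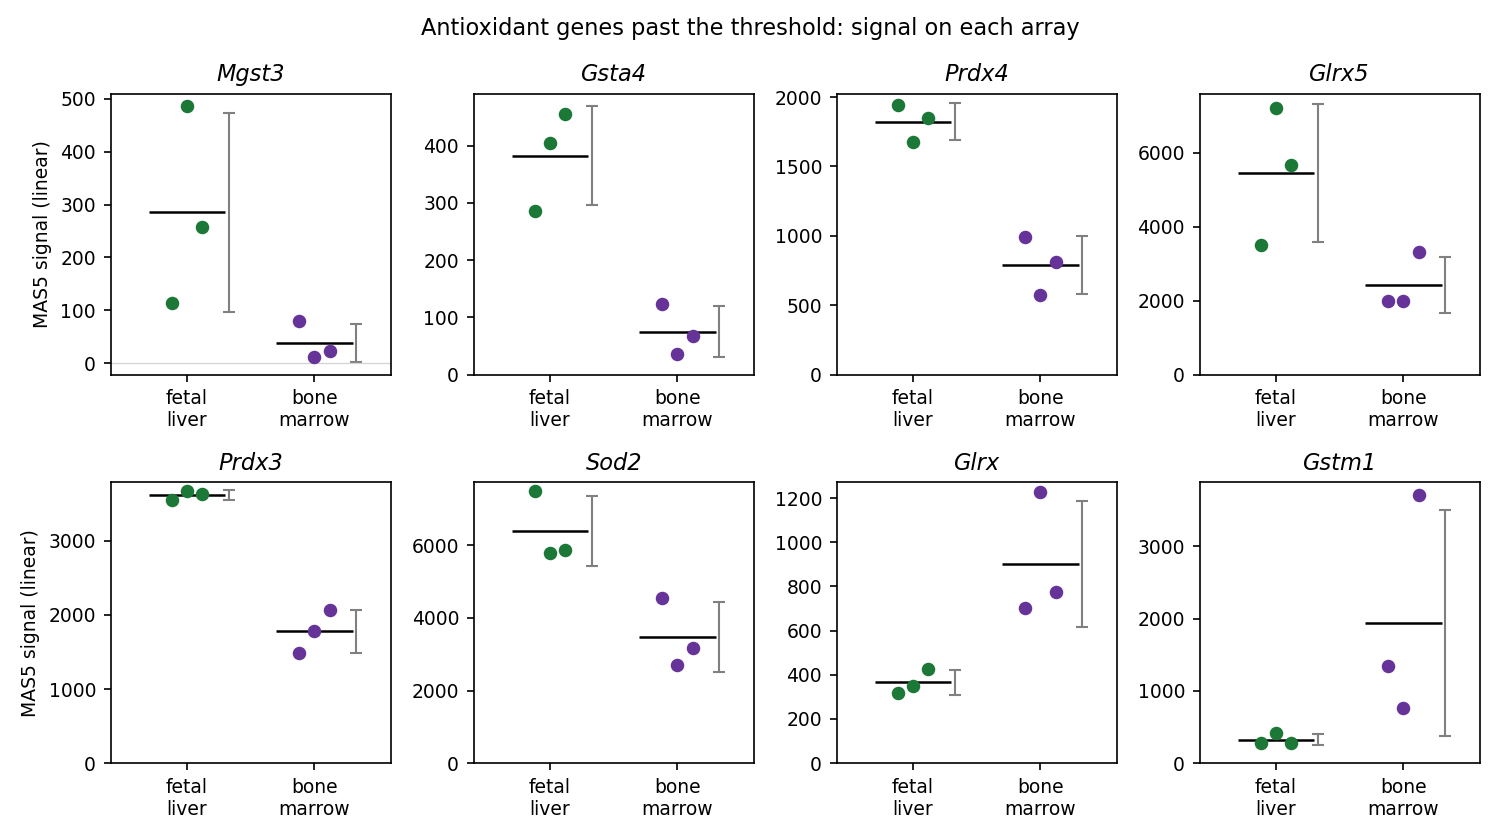
MAS5 signal (linear) of the 8 genes past the threshold on each of 3 fetal liver arrays (green, left) and 3 bone marrow arrays (purple, right); black lines are means and grey bars the SD. The tissues do not overlap in any of the 8, and the marrow signals of Mgst3 and Gstm1 are the most spread relative to their means.

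The enzymes that make and reduce glutathione showed no change past the threshold in limma, with 0 of 4 at an unadjusted p under 0.05. Gclc, the catalytic subunit of glutamate-cysteine ligase, the rate-limiting step, changed by -0.10 (interval -0.68 to 0.48), and its modifier subunit Gclm by -0.22 (-0.92 to 0.47). Gss, glutathione synthetase, had signals of 714, 824 and 713 in fetal liver and 732, 692 and 325 in marrow, where replicate 3 was low (change 0.45 ± 0.36, adjusted p = 0.511). Gsr, glutathione reductase, had 5665, 4837 and 4224 in fetal liver and 4518, 5358 and 7039 in marrow, overlapping, with a change of -0.19 and an interval of -0.65 to 0.27. All 4 intervals include 0, and that of Gss, -0.34 to 1.24, is the widest.

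Glutathione S-transferases, which join glutathione to electrophiles, had changes in both directions, with 2 risen, 1 fallen and 6 not past the threshold. Gsta4, an alpha-class enzyme for the lipid peroxidation product hydroxynonenal, had signals of 287, 405 and 456 in fetal liver and 123, 35.4 and 67.2 in marrow. The tissues were well apart, and the change was 2.44 ± 0.52 (SE, limma adjusted p = 0.0188). It was past the threshold in 15 of 17 alternatives, and lost it without fetal liver replicates 2 and 3 (adjusted p = 0.0845 and 0.0958).

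Mgst3, a membrane-bound transferase with peroxidase activity, had signals of 113, 486 and 257 in fetal liver and 79.0, 12.6 and 23.3 in marrow, where 2 of 3 arrays were above background. Fetal liver replicate 2 was the highest, and of the fetal liver arrays it also had the highest sums of hepatocyte (3678), erythroid (30607), granulocyte and monocyte (6919), macrophage (559) and mast cell, basophil and eosinophil markers (309), whose part was not tested. Of these, 2793 of the hepatocyte sum was Afp and 5004 of the granulocyte and monocyte sum was Mpo. Elane, Prtn3 and Ctsg were also highest on fetal liver replicate 2, but S100a8, S100a9, Camp and Ngp were highest on replicate 1 and Lyz2 on replicate 3. The change of Mgst3 was 2.93 ± 0.74 (adjusted p = 0.0382). Its call was lost without fetal liver replicates 2 and 3 (adjusted p = 0.158 and 0.123), without marrow replicates 2 and 3 (0.0914 and 0.0872), with no filter (0.0552) and without the variance trend (0.0835).

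Gstm1, a mu-class enzyme, fell in fetal liver, with signals of 278, 416 and 285 there and 1341, 762 and 3714 in marrow. Every fetal liver signal was below every marrow signal, and marrow replicate 3 was far above the other marrow arrays (change -2.27 ± 0.50, adjusted p = 0.0215). Marrow replicate 3 also had the highest granulocyte and monocyte sum, 71743 against 51217 and 46015 on marrow replicates 1 and 2. It had the highest marrow sums of macrophage (3335), mast cell, basophil and eosinophil (2810) and lymphoid markers (2111) as well. The granulocyte and monocyte markers did not share 1 order. Mpo (19048, 8804 and 24686 on marrow replicates 1 to 3), Ctsg, Elane, Prtn3, Lyz2 and Fcnb were highest on replicate 3. S100a8, S100a9 (7591, 12466 and 9324), Ltf, Camp, Ngp and Chil3 were highest on replicate 2, where Gstm1 was lowest. The marrow signals of 8 of 37 members followed the order of the granulocyte and monocyte sum, 4 of them with a lower mean in fetal liver and 4 (Gpx3, Glrx2, Glrx5 and Gstp1) with a higher one. How many of all genes have this order was not counted, so nothing is drawn from the 8. Glrx5 has it only through 2000.1 against 1999.6 on marrow replicates 1 and 2. Genes of the mu class are similar in sequence, and the probe set used for Gstm1 is of a kind prone to cross-hybridisation, so which member it read is uncertain. Another probe set annotated with Gstm1 alone had signals of 144, 249 and 170.3 in fetal liver and 881, 482 and 2624 in marrow and a change of -2.49 ± 0.55 (adjusted p over probe sets = 0.0260). The gene's call was lost without fetal liver replicates 1 and 3 (adjusted p = 0.0714 and 0.0779) and without the variance trend (0.0814), and without marrow replicate 3 the change was -1.65 (0.0415).

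Gstm5, another mu-class gene, went the other way in its mean, with signals of 386, 968 and 822 in fetal liver and 376, 315 and 354 in marrow, just without overlap (change 0.95 ± 0.39, adjusted p = 0.172). The promoters of this pair, whose changes had unlike signs, are printed as the 250 bases before the start site, at chr3:107895604-107895853 (plus strand) for Gstm5 and chr3:108017974-108018223 (minus strand, the farther upstream of 2 listed starts) for Gstm1, with the antioxidant response element core in capitals.
Gstm5: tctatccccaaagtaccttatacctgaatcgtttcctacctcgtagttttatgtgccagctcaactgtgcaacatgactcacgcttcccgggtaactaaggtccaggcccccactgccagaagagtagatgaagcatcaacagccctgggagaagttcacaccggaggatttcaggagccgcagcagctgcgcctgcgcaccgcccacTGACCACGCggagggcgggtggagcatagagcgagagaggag
Gstm1: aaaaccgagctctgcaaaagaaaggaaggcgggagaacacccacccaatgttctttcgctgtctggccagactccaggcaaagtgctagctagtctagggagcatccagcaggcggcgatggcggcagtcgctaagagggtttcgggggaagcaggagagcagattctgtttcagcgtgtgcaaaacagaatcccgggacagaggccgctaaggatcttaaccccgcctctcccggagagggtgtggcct
The core stands 34 to 42 bases before the Gstm5 start, and the Gstm1 window held none of the 3 motifs searched.

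The other transferases were not past the threshold. Gstp1, the pi-class enzyme, had signals of 3815, 3590.1 and 3383 in fetal liver and 3248, 2753 and 3328 in marrow, a change of 0.21 (interval -0.19 to 0.61). Gsto1, the omega-class enzyme, had 3877, 2655 and 2067 in fetal liver and 2408, 3141 and 3095 in marrow (change -0.05, interval -0.60 to 0.51), and its other probe set gave -0.73 ± 0.35. Mgst2, a microsomal enzyme that can also conjugate leukotrienes, had 38.5, 17.0 and 1.87 in fetal liver, where 1 array was above background, and 154, 20.8 and 717 in marrow, where 2 were. Its change of -3.14 ± 1.17 had an adjusted p of 0.138, and without marrow replicate 2 it was -4.42 (0.0334). Mgst1 had 132, 54.8 and 91.5 in fetal liver and 203, 52.6 and 452 in marrow, where replicate 3 was again the highest (change -0.94 ± 0.73, adjusted p = 0.500). Gstt1 changed by -0.66 (interval -1.99 to 0.67).

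Members were also read by compartment, a grouping chosen after the values were seen and therefore given without a test. Of 6 mitochondrial members (Prdx3, Sod2, Txn2, Txnrd2, Glrx2 and Glrx5) 3 rose and none fell. Of all genes, 3.01% were called higher and 4.76% lower in fetal liver. The 6 had a median log2 change of 0.93 and a range of -0.08 to 1.14. The low end is Txnrd2, whose value depended on the probe set. The grouping left out other members whose products can also lie in mitochondria, among them Gpx1, Gpx4, Gsr, Msra and Mgst1. These changed by -0.02, 0.21, -0.19, -0.86 and -0.94, none past the threshold. Of the 6 cytosolic counterparts of the mitochondrial genes (Prdx2, Sod1, Txn1, Txnrd1, Glrx and Glrx3) none rose in limma and Glrx fell. Their median was -0.02 and their range -1.26 to 0.79. Prdx2 and Txnrd1 were near the threshold (limma adjusted p = 0.0505 and 0.0644). All fetal liver signals lay above all marrow signals in 3 mitochondrial and 2 cytosolic genes, and in 13.8% of all genes. The difference between compartments was not tested, and the counts moved with the setting. Under quantile normalization 2 mitochondrial genes (Prdx3 and Sod2) and 1 cytosolic gene (Prdx2) rose and none fell, with a median of 0.90 for the mitochondrial and 0.034 for the cytosolic genes. With the mean of probe sets 2 mitochondrial genes (Glrx5 and Prdx3) and 1 cytosolic gene (Prdx2) rose, with a median of 0.81 for the mitochondrial and -0.18 for the cytosolic genes. Median centring gave 4 mitochondrial and 2 cytosolic genes as higher, with medians in the same order of 1.18 and 0.24. Without fetal liver replicate 2 or 3, or without the variance trend, 0 genes of either compartment were past the threshold.

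**Figure D4:**
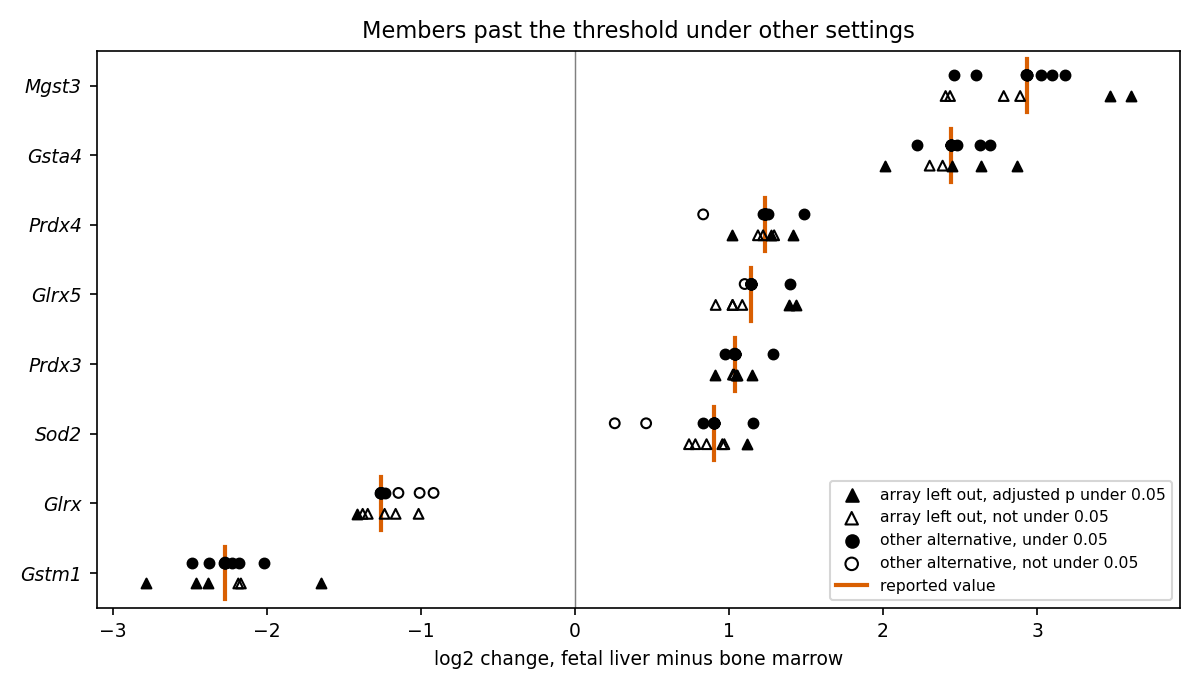
Log2 change, fetal liver minus bone marrow, of the 8 genes past the threshold under 17 other settings; triangles leave out 1 array, circles change another choice, filled symbols have an adjusted p under 0.05 and orange bars are the reported values. No change crosses 0, and open triangles stand in each of the 8 genes.

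Further genes of the pathway, taken from lists by name, were mostly not past the threshold: of 73 measured, 3 rose and 8 fell, with 23 at an unadjusted p under 0.05 and a median change of -0.08. Of all 11625 genes, 7.77% were called and 2643 had an unadjusted p under 0.05. The oxidant sources held 4 of the 8 fallen genes, among 6 measured. Cybb, the catalytic subunit of the phagocyte NADPH oxidase, had signals of 7.75, 32.6 and 10.5 in fetal liver and 575, 738 and 1234 in marrow (change -5.56 ± 0.58, SE, limma adjusted p = 4.42e-04), and was above background on 1 fetal liver array. Its partner Ncf4 had 61.1, 60.05 and 61.8 in fetal liver and 333, 286 and 781 in marrow (-2.73 ± 0.49, adjusted p = 0.00809). Mpo, the myeloperoxidase that makes hypochlorous acid, had 2550.1, 5004 and 3121 in fetal liver and 19048, 8804 and 24686 in marrow (-2.23 ± 0.36, adjusted p = 0.00463). Ncf1 was the other fallen gene (-2.23), named after its values were seen, while Rac2 and Cyba changed by 0.45 and 0.43. These oxidase genes and Mpo are known in granulocytes and monocytes, whose measured markers, Mpo itself among them, all fell. The part of such cells was not tested.

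Among 25 further redox and repair genes 2 rose and 3 fell. Hebp1, a haem-binding protein, had signals of 993, 1486 and 1028 in fetal liver and 179.7, 94.3 and 166 in marrow, far apart (change 3.0 ± 0.37, adjusted p = 0.00110). Mt1, the metal-binding metallothionein, had 1598, 1951 and 1080.2 in fetal liver and 257, 72.8 and 466 in marrow (2.84 ± 0.58, adjusted p = 0.0145); its call was lost, among others, without fetal liver replicates 1 and 2 (0.0574 and 0.0667) and with a probe set not prone to cross-hybridisation (1.61, 0.289). Sesn3, a stress-induced sestrin, fell, with 49.4, 81.0 and 50.4 in fetal liver and 342, 239 and 270.3 in marrow (-2.20 ± 0.46, adjusted p = 0.0161), a call lost without fetal liver replicate 3 (0.0728) or marrow replicate 1 (0.0763, where another probe set was the brightest) and with the mean of probe sets (0.0979). The other fallen genes, named after their values were seen, were Selenop, a selenium carrier (-1.59 ± 0.24, adjusted p = 0.00292), and Txnip, the thioredoxin inhibitor (-1.55 ± 0.37, adjusted p = 0.0293). The Txnip call was lost without fetal liver replicates 1 and 2 (0.0851 and 0.0650) and marrow replicate 2 (0.0732), without the variance trend (0.107) and under median centring (0.0503).

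Of 17 further glutathione genes 1 fell, Gstm2, again of the mu class, with signals of 143, 73.5 and 127 in fetal liver and 467, 599.7 and 302 in marrow (-1.97 ± 0.45, adjusted p = 0.0256). The call was lost without fetal liver replicates 2 and 3 (0.110 and 0.0744) and marrow replicates 1 and 2 (0.0636 and 0.0722). Of 11 genes of NADPH supply 1 rose, Mthfd2, the mitochondrial folate enzyme, with 1860.1, 2058 and 1808 in fetal liver and 1158, 871 and 838 in marrow (1.01 ± 0.23, adjusted p = 0.0268); in the 6 fits that left out an array it was past the threshold in 1, that without marrow replicate 1, and otherwise had an adjusted p of 0.0558 to 0.135. Of 14 partners and regulators of NRF2 none was past the threshold in limma (2 at an unadjusted p under 0.05), and the lowest p was that of the kinase gene Prkcd, at -0.83 ± 0.26 (adjusted p = 0.0865).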

How the data were processed

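Each deposited value is the intensity of a probe set, linear and made by the authors with MAS5 per the submitters' processing notes. Which release of MAS5 was run is not given in the sources used here. On each of the 6 arrays the mean after trimming 2% at each end was 500. Signals of 45037 probe sets (64 controls left out) were converted to log2(signal + 2.87), the 10th percentile of all signals, which understates changes of dim genes. Of these, 27022 had a mean above the 40th percentile. Platform annotation gave 1 symbol to 34945 of the 45037 probe sets, several to 932 and none to 9160, and the brightest kept probe set of each gene was taken, which left 11625 genes. Differences between tissues were fitted with lmFit and eBayes of limma 3.58.1 (R 4.3.3), letting the variance follow intensity. P-values of all genes were adjusted together by Benjamini-Hochberg, and those under 0.05 were called. Intervals are 95%. A signal above the highest of 27 bacterial control probe sets of its array (22.2 to 35.1) was called above background. The number of arrays limits the precision. Identical signals shared by any pair of arrays numbered 0.

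The members, lists and rule were chosen with earlier results of these data known. The rule gives all 6 signals for members past the threshold and, in each role, for the brightest member and the one with the smallest p among the rest. Signals of other members were added where the text describes them. From each pathway list it takes up to 3 called genes with the largest change, or the one with the smallest p, and from each marker list the 3 brightest. Alternatives changed the offset, scaling, filter, background floor, variance model, probe set, replicate block and arrays used. The same code was tested on simulated data. Figures were drawn with matplotlib 3.10.9.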

Additional observations from a re-analysis of the deposited data

How the results depend on the processing

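With 1 array left out, the count of members higher in fetal liver ranged from 0 to 6 and that of members lower from 0 to 2, where all arrays gave 6 and 2. Over the same fits the genes higher in fetal liver numbered 102 to 320 and those lower 317 to 451 (350 and 553 with all arrays), the further pathway genes 1 to 3 higher and 6 to 8 lower, and the median change of the members was 0.021 to 0.27. For all genes, the lowest counts came without fetal liver replicate 3 (102 and 317). Without fetal liver replicate 2 they were 106 and 336, without fetal liver replicate 1 there were 177 genes higher, and without fetal liver replicate 1 or 2 there was 1 pathway gene higher. Fewer arrays are part of these settings. Without the variance trend there were 1 member higher and 0 lower, 166 genes higher and 1 pathway gene higher. Median centring gave 9 members higher and 1 lower, 897 genes higher, 5 pathway genes higher and a median change of the members of 0.41. Quantile normalization, no filter and the mean of probe sets each gave 1 member lower. The cause of these moves was not tested. The labels do not say whether equal replicate numbers pair the samples of the 2 tissues. Deviations from the mean of each tissue correlated at 0.15, -0.02 and 0.08 between same-numbered samples, which cannot settle it. With a replicate block there were 8 members higher and 2 lower, 522 and 688 genes, and 3 and 9 pathway genes. With offsets of 1 or 16, the background floor, the filter at the 60th percentile or probe sets not prone to cross-hybridisation, all these counts were within 1.5 times those reported. Mgst3 could not be fitted with that stricter filter, which it did not pass. With 3 arrays per tissue and signals near background in Mgst2, Mgst3, Hmox1, Glrx3 and Gstt1, the intervals of these genes' changes are wide.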
